A study of Mus musculus with 8 samples.

Results

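The genes described here are 37 genes of the extraembryonic and definitive endoderm and of the basement membrane, chosen by name, with earlier results of these data known, from 18193 genes measured in mouse embryonic stem cell (ESC) lines. Of these, 26 are endoderm genes (transcription factors, receptors, plasma proteins, anterior and definitive endoderm genes and parietal endoderm genes) and 11 are basement membrane genes. Each was matched by its symbol in the platform annotation, and all 37 had at least 1 probe set. Values are given in the order of lines 3, 3.2 and 3.3 (wild-type), 5 and 3.1 (heterozygous), and 7, 3.34 and 3.38 (null). Each gene is represented by its brightest probe set, by the mean of the 8 arrays.

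RNA of 8 ESC lines was measured on Affymetrix 430 2.0 arrays, with a single array per line. The wild-type lines were 3, 3.2 and 3.3, the heterozygous lines were 5 and 3.1, and the Zfp281 null lines were 7, 3.34 and 3.38. Zfp281 encodes a Krüppel-like zinc finger protein. Its mutant allele lacks the exons and was built with a drug selection marker between loxP sites, and the labels do not say which lines still carry that marker. The lines came from outgrowths of blastocysts, and all 8 were grown with LIF on primary mouse embryonic fibroblasts, so the RNA can hold feeder RNA and no group was free of feeders. Each line is a separate derivation, so the spread within a genotype holds differences between lines, cultures and arrays. Zfp281 had a log2 value between 6.69 and 7.93 in the wild-type and heterozygous lines and between 3.64 and 5.23 in the null lines, of which 2 were still called present for it.

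ESCs resemble the epiblast of the blastocyst. Beside the epiblast the embryo forms the primitive endoderm, under the control of Gata6, Gata4, Sox17 and Sox7, and from it come the visceral endoderm, which takes up nutrients through cubilin and megalin and secretes plasma proteins, and the parietal endoderm, which lays down the thick basement membrane known as Reichert's membrane. A basement membrane is a sheet of laminin and type IV collagen networks, joined by nidogens and the heparan sulfate proteoglycan perlecan. Definitive endoderm arises later, from the primitive streak, and expresses Cxcr4, Sox17 and Foxa2. The study asked how loss of Zfp281 affects lineage markers, endoderm markers among them.

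The arrays differed in ways that touch these genes. The share of probe sets called present by the Affymetrix software was lowest in heterozygous line 3.1 (28.4%) and wild-type line 3.2 (30.4%) and lay between 32.3% and 35.3% in the other lines. The difference between 3′ and 5′ control probe sets, a measure of RNA quality, was 2.68 to 3.71 log2 units in null lines, 4.23 to 4.86 in wild-type and 4.49 to 4.80 in heterozygous lines. Of 12 ESC markers 10 were called present in all 8 lines, and Utf1 was called present in none. Their summed linear level was 9335 to 13436 in wild-type, 12092 to 12887 in heterozygous and 18538 to 20647 in null lines. Their mean log2 value was 8.46 to 9.21 in wild-type, 9.06 to 9.31 in heterozygous and 9.22 to 9.40 in null lines. In null relative to wild-type ESCs their median log2 fold change was 0.59, 1 of the 12 rose in limma (Dppa5a, 1.23, adjusted p = 0.0301) and 7 were higher at an unadjusted p under 0.05. Of the 12, 9 had a higher mean and 3 a lower one, with log2 fold changes from −2.62 to 1.48. None was lower at an unadjusted p under 0.05. The part of these differences in the values below was not tested. Of 23 feeder fibroblast markers 11 were present in all lines, Pdgfrb and Dpt in none, and the summed linear level of the list was 2392 to 4044 in wild-type, 3027 to 4149 in heterozygous and 2243 to 2366 in null lines. In bulk RNA such as this, fewer cells of a type and less RNA per cell cannot be told apart.

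Most of the basement membrane genes were readily detected in ESC cultures, while many endoderm genes were not. Of the 37 genes, 25 were called present in at least 1 line on the probe set used (57% of all genes) and 11 in all 8 lines (29.1% of all genes). Those present in all lines were Lamb1, Lamc1, Col4a1, Col4a2, Nid1, Nid2, Hspg2, Sparc, Dab2, Srgn and Rhox5, so that 8 of the 11 basement membrane genes and 3 of the 26 endoderm genes were in this group. On the probe set used, the genes called present in no line were the forkhead factors Foxa1 and Foxa2, the nuclear receptor Hnf4a, the cubilin partner Amn, the plasma protein genes Afp, Ttr, Apoa1 and Apob, the anterior genes Cer1 and Gsc, and the laminin chains Lama5 and Lamb2. Other probe sets of Hnf4a, Ttr, Afp and Apob were called present in 1 or 2 lines.

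Null and wild-type ESCs were compared to ask whether these genes change without Zfp281. Lamb1, the laminin beta 1 chain, fell in null ESCs, and no gene of the 37 rose. Both type IV collagen chains and Sparc, a collagen-binding glycoprotein of basement membranes, had lower means in null ESCs without passing the test, and Nid1, nidogen 1, had a higher one. Of the endoderm genes none passed, and the primitive endoderm factor Gata6 differed little between the means. In limma, adjusted over all genes, 1 of 37 fell, against 0.44% of all genes, none rose, against 0.693% of all genes, and 36 did not pass.

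At an unadjusted p under 0.05, 2 of the 37 were higher (8.67% of all genes) and 5 were lower (7.71% of all genes) in null ESCs. The threshold of 2-fold was passed upward by Cubn, where 1.37% of all genes passed it, and downward by Lamb1, Col4a1 and Col4a2, where 1.1% of all genes did. The values of the 3 null lines all lay above those of the 3 wild-type lines for 2 genes, Nid1 and Ttr, the latter not called present on the probe set used (11.1% of all genes), and all below them for 5 genes (11.2% of all genes). The median log2 fold change was −0.31 over the basement membrane genes, −0.14 over the endoderm genes and −0.01 over all genes. Leaving out each line in turn moved the basement membrane median between −0.56 (line 3.2 left out) and −0.15 (line 3 left out), and it was −0.19 with line 3.3 left out, all 3 of them wild-type. These medians describe the lists, and their difference from other genes has no test.

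Lamb1 forms the beta chain of laminin-111, the first laminin of the embryo. Its log2 value was 9.11, 8.52 and 8.83 (wild-type), 7.76 and 8.07 (heterozygous), and 7.23, 7.78 and 7.68 (null). Every null and every heterozygous line lay below every wild-type line. In null relative to wild-type ESCs Lamb1 fell by 1.25 log2 units (−1.25, standard error, SE, 0.20, 95% interval −1.71 to −0.80, limma adjusted p = 0.0384). The next brightest Lamb1 probe set, also present in all 8 lines, gave −0.87 (limma adjusted p = 0.135 across probe sets).

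The Lamb1 call was close to its threshold. The adjusted p from limma was 0.0516 with the litter as a block, 0.187 with the feeder marker level as a covariate (log2 fold change −1.41) and 1 with the 3′ to 5′ control difference as a covariate (log2 fold change −0.66), and 79.1% of the variance of that difference and 53.3% of that of the feeder level lay between genotypes. Without null line 7, null line 3.38 or wild-type lines 3, 3.2 or 3.3 it was 0.138, 0.0527, 0.129, 0.0797 and 0.0576. The fold change was negative in every setting run, from −1.51 to −0.54. The feeder covariate was the mean log2 value of the feeder markers, not their summed linear level. That mean was 5.92 to 6.57 in wild-type, 6.23 to 6.67 in heterozygous and 5.86 to 6.01 in null lines.

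The other chains of laminin-111 are Lama1 and Lamc1. Lama1 varied widely among wild-type lines, with log2 values of 6.23, 3.64 and 5.43 (wild-type), 4.93 and 3.73 (heterozygous), and 4.53, 5.03 and 4.67 (null). The null lines thus lay inside the wild-type range. Null minus wild-type was −0.35 log2 units (95% interval −1.72 to 1.01) for Lama1 and −0.31 (95% interval −0.99 to 0.36) for Lamc1, whose wild-type and null lines also overlapped.

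**Figure D1:**
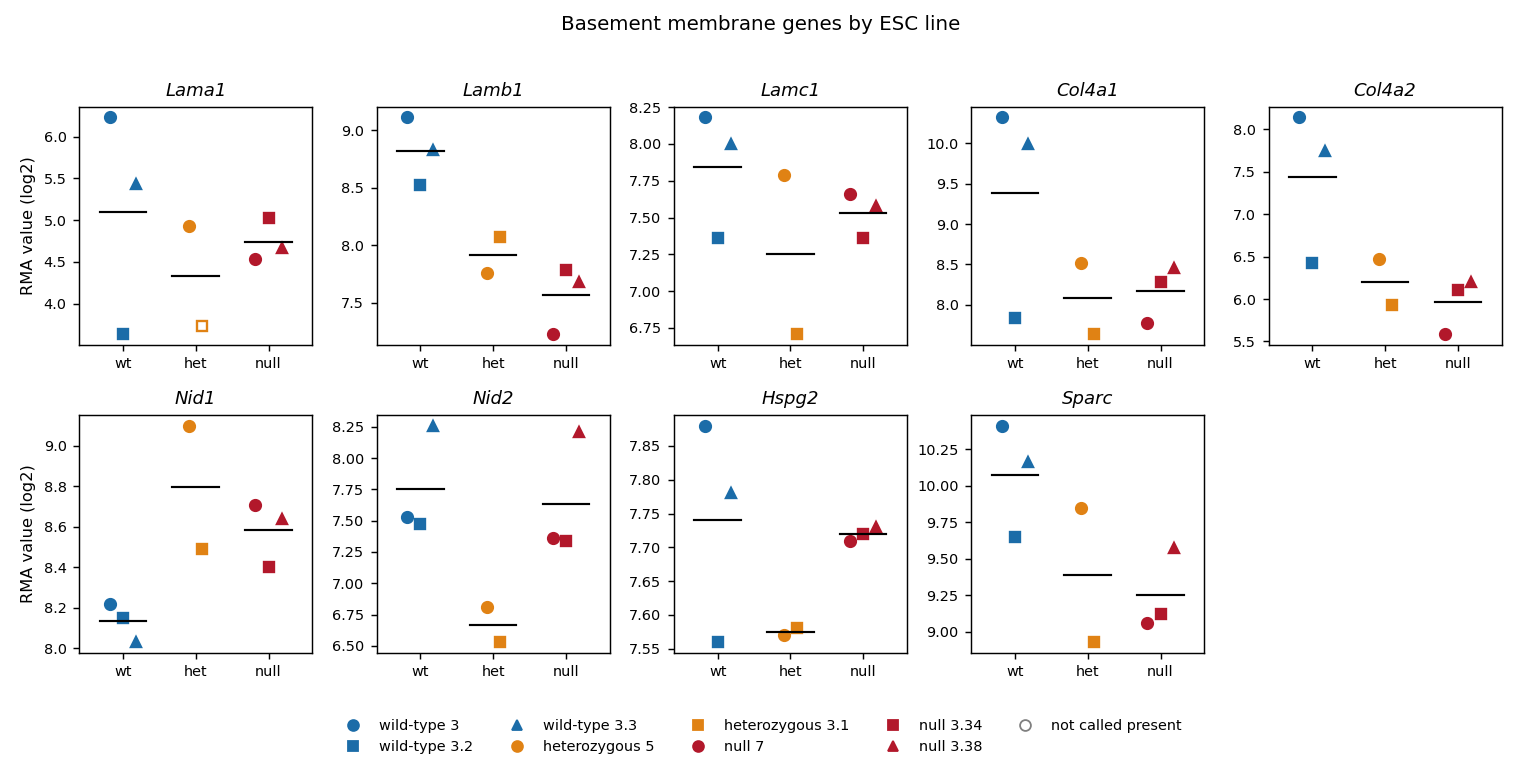
Log2 values of 9 basement membrane genes called present in at least 1 line, plotted by genotype (wt, wild-type; het, heterozygous). Each point is 1 line, bars are genotype means, open points were not called present, and each panel has its own vertical axis, which does not start at 0; for Lamb1 all null and heterozygous lines lie below the 3 wild-type lines, while for Col4a1 wild-type line 3.2 (7.84) lies far below wild-type lines 3 (10.32) and 3.3 (9.99).

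Col4a1 and Col4a2 encode the alpha 1 and alpha 2 chains that assemble into the common type IV collagen. Col4a1 had log2 values of 10.32, 7.84 and 9.99 (wild-type), 8.52 and 7.64 (heterozygous), and 7.77, 8.28 and 8.46 (null). Col4a2 had 8.14, 6.43 and 7.75 (wild-type), 6.47 and 5.93 (heterozygous), and 5.59, 6.11 and 6.20 (null). For both genes wild-type lines 3 and 3.3 stood above all other lines. Wild-type line 3.2 lay among the null lines for Col4a1 and above them for Col4a2.

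Null minus wild-type was −1.47 log2 units for Col4a2 (SE 0.40, limma adjusted p = 0.113). For Col4a1 it was −1.21 (SE 0.59, limma adjusted p = 0.366). Neither passed in the fit without a block. The study's notes place null line 7 with wild-type line 3, and null line 3.38 with wild-type line 3.3, in the same litters. With these litters as a block the adjusted p from limma was 0.0464 for Col4a1 and 0.0458 for Col4a2, in a fit of 2 pairs that leaves out wild-type line 3.2 and null line 3.34.

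The litter differences show the same values by pair. Null line 7 minus wild-type line 3 gave −2.55 log2 units for Col4a1 and −2.54 for Col4a2. Null line 3.38 minus wild-type line 3.3 gave −1.53 for Col4a1 and −1.56 for Col4a2. The null line was lower in both litters for 8 of the 11 basement membrane genes (72.7%) and 12 of the 26 endoderm genes (46.2%), against 31.8% of all genes, and no test was made of these shares. Wild-type lines 3 and 3.3 of these pairs held the 2 highest of the 8 values for 7 of the 11 and 6 of the 26 genes. For those genes a lower null line in both litters follows from that order, so the shares do not stand apart from it. The order held for 3.64% of all genes.

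Col4a1 and Col4a2 lie head to head on mouse chromosome 8, and their start region is shown because the pair had like values across lines. In RefSeq on GRCm38.p6 the start sites are 21 bases apart, Col4a1 on the minus strand at 11312826 and Col4a2 on the plus strand at 11312805. The gene records overlap there, sharing 85 bases. The only match to GGGGAGGGG or its complement in either window (250 bases before the start site to 50 after) is the same 9 bases for both genes, chr8:11312791-11312799. The match begins at 28 from the Col4a1 start site, inside that gene, and at −14 from the Col4a2 start site. The capitals mark the match on the plus strand and, in the second line, on the strand of Col4a1.
Col4a1-Col4a2 start region, chr8:11312780-11312809, plus strand: gttggcgctgcCCCCTCCCCtcggcagtgc
The same stretch, chr8:11312780-11312809, minus strand: gcactgccgaGGGGAGGGGgcagcgccaac

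This G-rich motif, of the kind bound by Krüppel-like zinc finger proteins, was searched on both strands. Its letters can share 2 bases with CCAAT or its complement, and in the windows of Col4a1 and Col4a2 the matches lie apart. Of 32851 RefSeq promoter windows 6.37% held it, and 7 of the 26 genes with a window had it in at least 1 of their windows, namely Apoe, Col4a1, Col4a2, Foxa1, Foxa2, Gsc and Hnf4a. The share counts windows and the count counts genes, of which Apoe and Foxa2 have 3 windows each and Hnf4a has 2, and Col4a1 and Col4a2 share 1 match, so they are not alike. The GATA motif GATAAG was in 7.44% of windows and in those of 3 genes, Apoa1, Apob and Dab2. CCAAT was in 37.4% of windows and in those of 11 genes, among them Lamb1, Col4a1 and Col4a2. A match says nothing about binding in these cells, which the arrays did not measure.

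The Lamb1 upstream sequence is shown because Lamb1 was the gene that passed. The CCAAT match in capitals begins at −187 from the RefSeq start site on GRCm38.p6, and the 103 bases given end before the gene record.
Lamb1 upstream, chr12:31265043-31265145, plus strand: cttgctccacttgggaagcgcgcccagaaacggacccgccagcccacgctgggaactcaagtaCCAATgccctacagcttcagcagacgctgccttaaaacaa

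Sparc was bright in all lines, with log2 values of 10.41, 9.65 and 10.16 (wild-type), 9.85 and 8.93 (heterozygous), and 9.06, 9.12 and 9.57 (null). All null lines lay below all wild-type lines. Null minus wild-type was −0.83 log2 units (SE 0.28, limma adjusted p = 0.178). A second Sparc probe set, also present in all 8 lines, gave −0.37 (limma adjusted p = 0.661 across probe sets), and there the genotypes overlapped.

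Nid1, which links laminin to type IV collagen, ran the other way. It had log2 values of 8.22, 8.15 and 8.03 (wild-type), 9.10 and 8.49 (heterozygous), and 8.71, 8.40 and 8.64 (null). All 5 mutant lines lay above all 3 wild-type lines. Null minus wild-type came to 0.45 log2 units (SE 0.17, limma adjusted p = 0.219). The 2 further probe sets of the gene, called present in no line, gave 0.11 and −0.01.

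Nid2, its paralog, had log2 values of 7.53, 7.47 and 8.26 (wild-type), 6.81 and 6.53 (heterozygous), and 7.36, 7.34 and 8.21 (null). Its wild-type and null lines overlapped, with a log2 fold change of −0.12 (95% interval −0.77 to 0.53), and both heterozygous lines lay below them all. Hspg2, perlecan, spanned only 0.32 log2 units over the 8 lines on the probe set used. A second Hspg2 probe set, called present in some lines, ran from 5.56 (heterozygous line 5) to 6.53 (null line 7). It gave 0.34 between null and wild-type means (limma adjusted p = 0.608 across probe sets). The undetected laminin chains Lama5 and Lamb2 had log2 fold changes between null and wild-type means within 0.15 of 0 and are given no fold.

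Fibroblasts also make type IV collagen, laminin and Sparc, and most feeder markers also had lower means in null ESCs. Of the 23 markers 20 had a lower mean in null than in wild-type ESCs, with a median log2 fold change of −0.43, and none passed in limma (4 lower at an unadjusted p under 0.05). The part of the feeder level in the values of the basement membrane genes was not tested beyond the covariate.

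Among the endoderm transcription factors, none of the 7 passed the test between null and wild-type ESCs. Gata6, which sets up primitive endoderm, had log2 values of 5.10, 4.09 and 4.86 (wild-type), 4.46 and 4.03 (heterozygous), and 4.43, 4.69 and 4.82 (null). The null lines lay inside the wild-type range, and the gene was called present in all of them. Gata6 differed by −0.04 log2 units between null and wild-type means (95% interval −0.62 to 0.55, limma adjusted p = 0.974), and it changed sign in 5 of 18 settings, from −0.35 to 0.17.

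Gata4, which acts with Gata6, had log2 values of 5.58, 4.68 and 4.76 (wild-type), 4.49 and 4.58 (heterozygous), and 4.48, 4.56 and 4.57 (null). Wild-type lines 3 and 3.3 and 1 heterozygous line were called present for it, and no null line was. The null mean, of undetected values, was 1.38-fold lower than the wild-type mean (limma adjusted p = 0.344). Over the settings run the log2 fold change went from −1.01 to −0.07.

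Sox17, shared by primitive and definitive endoderm, had log2 values of 5.14, 3.59 and 5.07 (wild-type), 4.32 and 2.94 (heterozygous), and 3.09, 3.86 and 3.92 (null). Wild-type lines 3 and 3.3 were again above the rest, and wild-type line 3.2 lay among the null lines. For Sox17 null minus wild-type was −0.98 log2 units (95% interval −2.09 to 0.14, limma adjusted p = 0.385). A second Sox17 probe set, at values between 3.62 and 3.82 in every line, gave −0.07.

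Hnf4a, a nuclear receptor of visceral endoderm and liver, was called present in no line on this probe set and is given no fold. Its log2 values were 5.41, 5.26 and 5.14 (wild-type), 5.46 and 4.79 (heterozygous), and 5.55, 4.71 and 5.32 (null), with full overlap. Foxa2, Foxa1 and Sox7 had log2 ranges over the 8 lines of 0.83, 0.39 and 1.02. Of these 3 factors of endoderm only Sox7 was called present in any line, in 4 of 8.

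Cxcr4, the chemokine receptor used to mark definitive endoderm, was close to background. Its log2 values were 3.23, 3.64 and 3.07 (wild-type), 3.15 and 3.39 (heterozygous), and 2.97, 2.94 and 3.16 (null). It was called present in 2 wild-type lines, 1 heterozygous line and no null line, and the groups overlapped. The null mean, of undetected values, was 1.22-fold lower (limma adjusted p = 0.462), with a 95% interval of the log2 fold change from −0.65 to 0.09. The other genes of this group are Hhex, Cer1, Gsc and Fst, of which the activin inhibitor follistatin, Fst, had the largest log2 fold change (−0.75, limma adjusted p = 0.312).

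**Figure D2:**
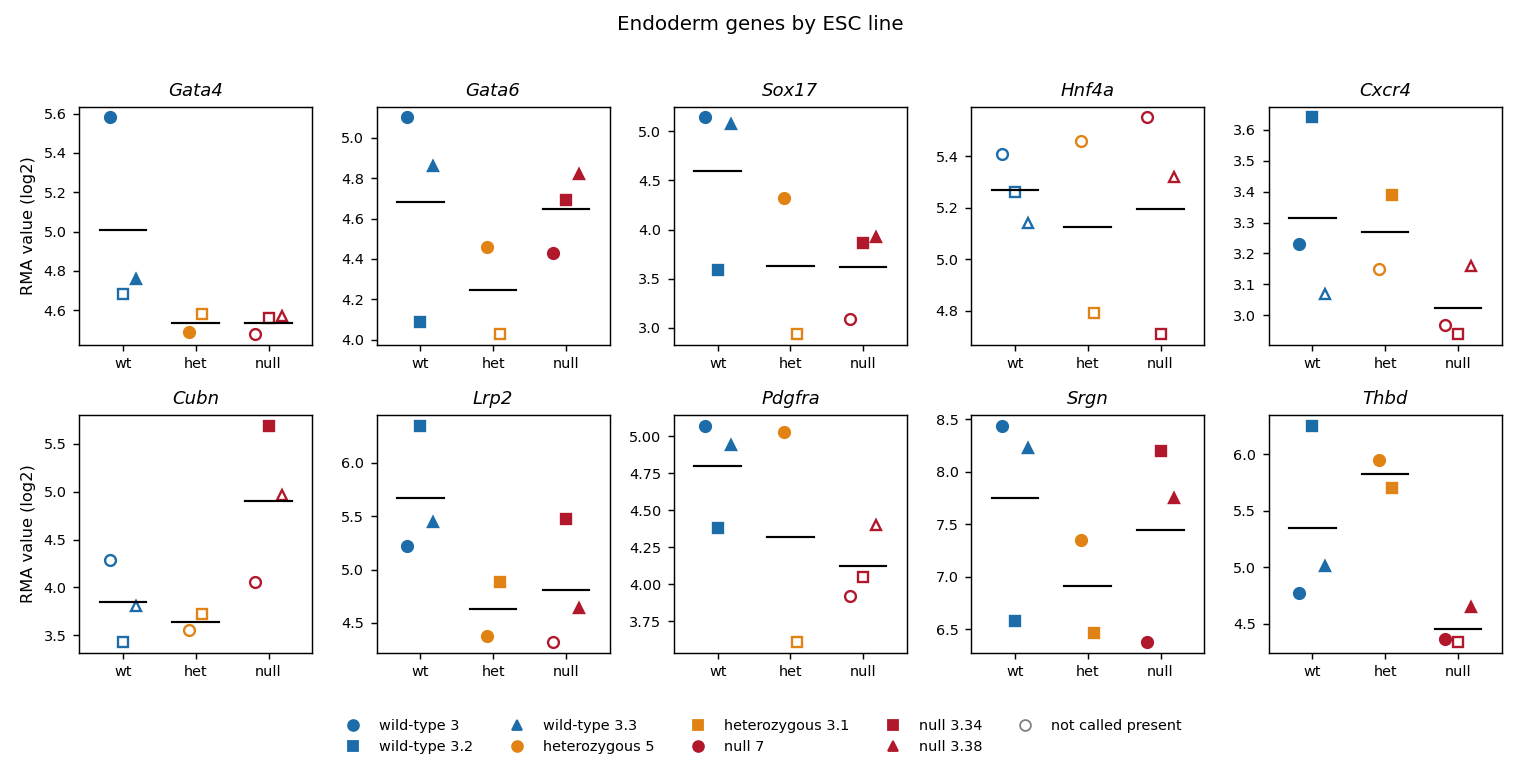
Log2 values of 10 endoderm genes by genotype (wt, wild-type; het, heterozygous), with 1 point for each line, bars at genotype means and open points where the gene was not called present. Each panel has its own vertical axis, which does not start at 0; Gata6 in null lines lies inside the wild-type range, Gata4 is open in all 3 null lines, and Cubn is filled only in null line 3.34.

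Of the receptors, Cubn and Lrp2 encode cubilin and megalin, which take up protein in the visceral endoderm. Cubn had log2 values of 4.29, 3.43 and 3.81 (wild-type), 3.56 and 3.72 (heterozygous), and 4.06, 5.69 and 4.97 (null). Only null line 3.34 was called present, and null line 7 lay below wild-type line 3. The null mean was 2.09-fold higher than the wild-type mean (limma adjusted p = 0.205). The wild-type mean, and most of the null values, were of undetected values. Over the settings run the log2 fold change went from 0.47 to 2.49. The second probe set gave a log2 fold change of 0.67 (limma adjusted p = 0.0738 across probe sets).

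Lrp2 had log2 values of 5.22, 6.35 and 5.45 (wild-type), 4.38 and 4.88 (heterozygous), and 4.32, 5.47 and 4.64 (null). Wild-type line 3.2 was the highest, and null line 3.34 overlapped the wild-type lines. For Lrp2 null minus wild-type was −0.86 log2 units (SE 0.36, limma adjusted p = 0.283), and 0.16 after the 3′ to 5′ control difference was added as a covariate. It was −0.52 without wild-type line 3.2, and 2 further probe sets gave −0.11 and −0.09. Pdgfra, the PDGF receptor of primitive endoderm, was present in all wild-type lines and no null line. Its null mean, of undetected values, was 1.59-fold lower (limma adjusted p = 0.403). Dab2, an endocytic adaptor, was present in all 8 lines with a range of 2.05 log2 units and its extremes in 2 null lines, 3.34 and 7.

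Thbd, thrombomodulin, stood out among the parietal endoderm genes. It had log2 values of 4.77, 6.25 and 5.01 (wild-type), 5.95 and 5.70 (heterozygous), and 4.37, 4.34 and 4.65 (null). All null lines lay below all other lines. Null minus wild-type came to −0.89 log2 units (SE 0.34, limma adjusted p = 0.234). It was −0.44 without wild-type line 3.2, −0.41 with the feeder level as a covariate and −0.38 with the litter as a block.

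Srgn, a proteoglycan of secretory granules, and Rhox5, a homeobox gene, were present in all lines with wide ranges, of 2.06 and 2.71 log2 units. The 5 plasma protein genes, which visceral endoderm and liver secrete, had log2 fold changes between 0.07 and 0.34, and on the probe sets used only Apoe of them was called present, in 2 lines.

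**Figure D3:**
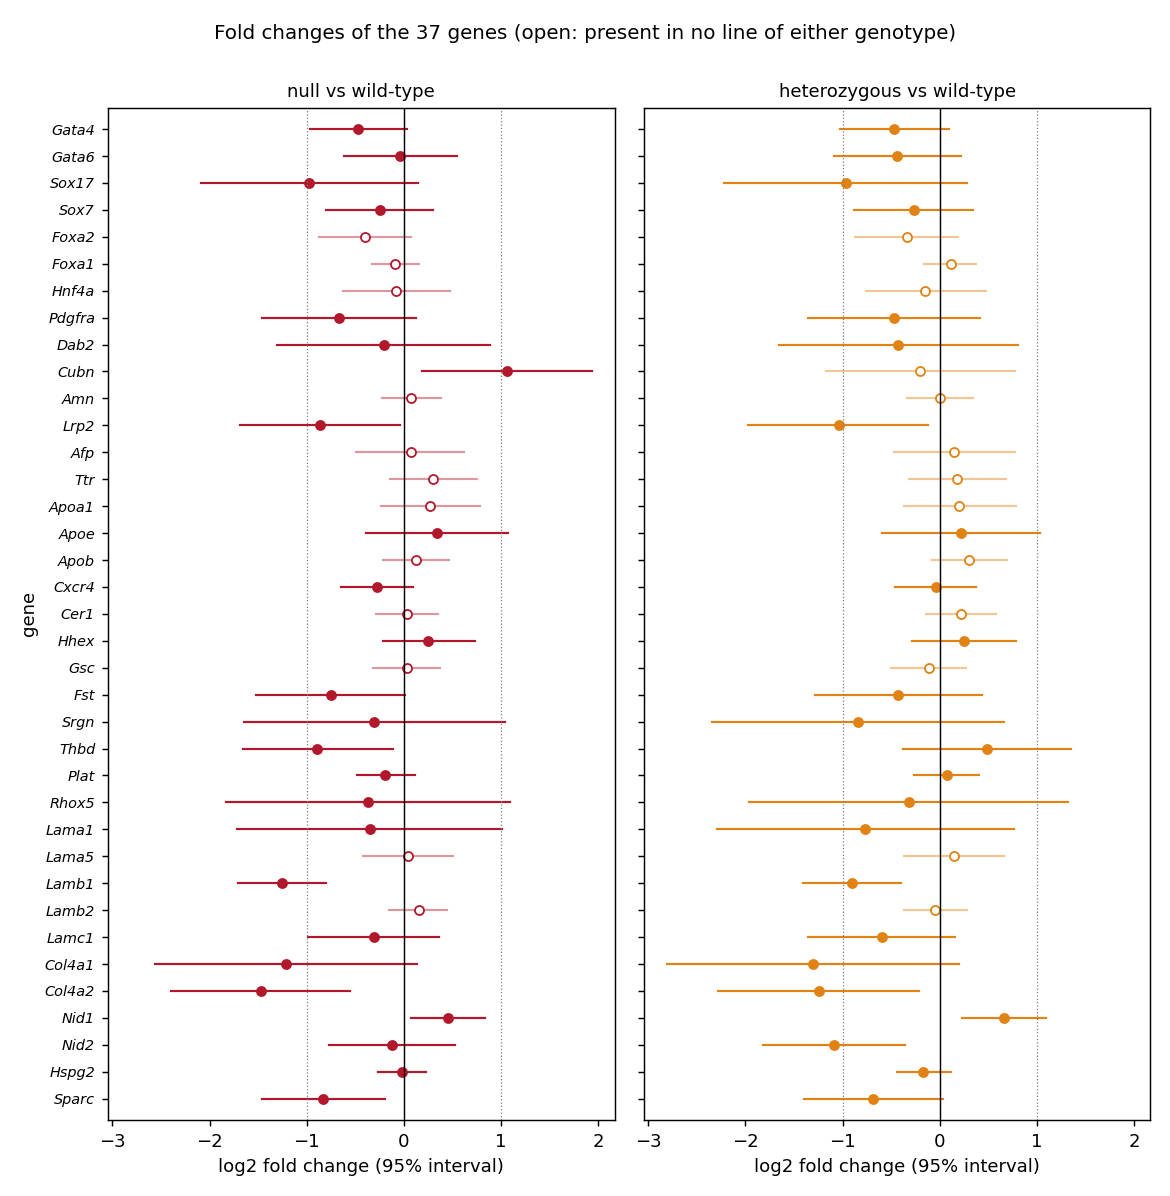
Log2 fold changes of the 37 genes in null (left) and heterozygous (right) ESCs against the same wild-type lines, with 95% intervals from limma. Open points mark genes called present in no line of either genotype and dotted lines mark 2-fold; on the left Lamb1 (−1.25, interval −1.71 to −0.80) is the gene that passed after adjustment, and on the right none passed.

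Heterozygous and wild-type ESCs were compared to ask whether 1 lost allele sufficed. No gene of the 37 passed in limma, and 0% of all genes did (304 higher and 397 lower of 18193 at an unadjusted p under 0.05). At that unadjusted threshold 1 of the 37 was higher, Nid1 (1.67% of all genes), and 4 were lower (2.18% of all genes), namely Lamb1, Col4a2, Nid2 and Lrp2. The 2-fold threshold was passed downward by Lrp2, Col4a1, Col4a2 and Nid2, where 0.209% of all genes passed it, and upward by none (0.126% of all genes). Both heterozygous lines lay above all wild-type lines for 2 of the 37 genes (8.44% of all genes) and below them for 4 (8.83% of all genes). The median log2 fold change was −0.69 over the basement membrane genes, −0.13 over the endoderm genes and 0.01 over all genes. This comparison uses the same 3 wild-type lines as that of the null ESCs.

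The basement membrane median rested on 1 line more than on the other. It was −0.17 without heterozygous line 3.1 and −1.14 without heterozygous line 5, and line 3.1 also had the lowest share of probe sets called present. For Lamb1 heterozygous minus wild-type was −0.90 log2 units (SE 0.22, limma adjusted p = 0.997) with both heterozygous lines below all wild-type lines. Nid2 had −1.09 and Nid1 0.66, each with both heterozygous lines beyond all wild-type lines. The feeder markers here had a median log2 fold change of 0.20, and 17 of 23 had a higher mean in heterozygous ESCs.

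Null and heterozygous ESCs differed at none of the 37 genes in limma, and 0% of all genes passed (1392 higher and 1120 lower at an unadjusted p under 0.05). At that unadjusted threshold Cubn and Nid2 were higher in null ESCs (7.65% of all genes) and Thbd was lower (6.16% of all genes). For Thbd null minus heterozygous was −1.37 log2 units (SE 0.38, limma adjusted p = 0.146). It was the gene lower by over 2-fold (0.66% of all genes), as Cubn was higher by over 2-fold (1.76% of all genes). Thbd passed when the fit held only these 2 genotypes (limma adjusted p = 0.0352) and without wild-type line 3.2 (limma adjusted p = 0.0194), and its log2 fold change ran from −1.49 to −0.59 over the settings run, the latter with the feeder level as a covariate. Of the 23 feeder markers 20 had a lower mean in null than in heterozygous ESCs, 10 of them with no overlap and 7 at an unadjusted p under 0.05, with a median log2 fold change of −0.54. Their part in the Thbd difference was not tested beyond the covariate. Nid2 had 0.97 and its lines did not overlap between the genotypes. The null lines lay above both heterozygous lines for 3 of the 37 genes (13.3% of all genes) and below them for 3 (14.5% of all genes). The median was 0.09 over the basement membrane genes, 0.00 over the endoderm genes and −0.02 over all genes.

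Several of these genes differed widely between the wild-type lines themselves. Wild-type lines 3 and 3.3 held the 2 highest values of the 8 lines for 13 of the 37 genes, against 3.64% of all genes. These were Gata4, Gata6, Sox17, Foxa2, Fst, Srgn, Lama1, Lamb1, Lamc1, Col4a1, Col4a2, Hspg2 and Sparc, of which Foxa2 was called present in no line. They include 7 of the 11 basement membrane genes and 4 of the 7 endoderm transcription factors. None of the 23 feeder markers had this order, which at 3.64% of all genes does not set the markers apart from other genes. The order was noticed in these data and has no test.

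Wild-type line 3.2 and heterozygous line 3.1, the lines with the fewest probe sets called present, held the lowest 2 values for 2 of the 37 genes, Gata6 and Lama1, against 7.72% of all genes. Of the 37 genes 9 spanned over 2 log2 units across the 8 lines, against 2.36% of all genes. These were Sox17, Dab2, Cubn, Lrp2, Srgn, Rhox5, Lama1, Col4a1 and Col4a2. Without both lines 3.2 and 3.1 no gene of the 37 passed between null and wild-type ESCs, and the basement membrane median was −0.56.

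**Figure D4:**
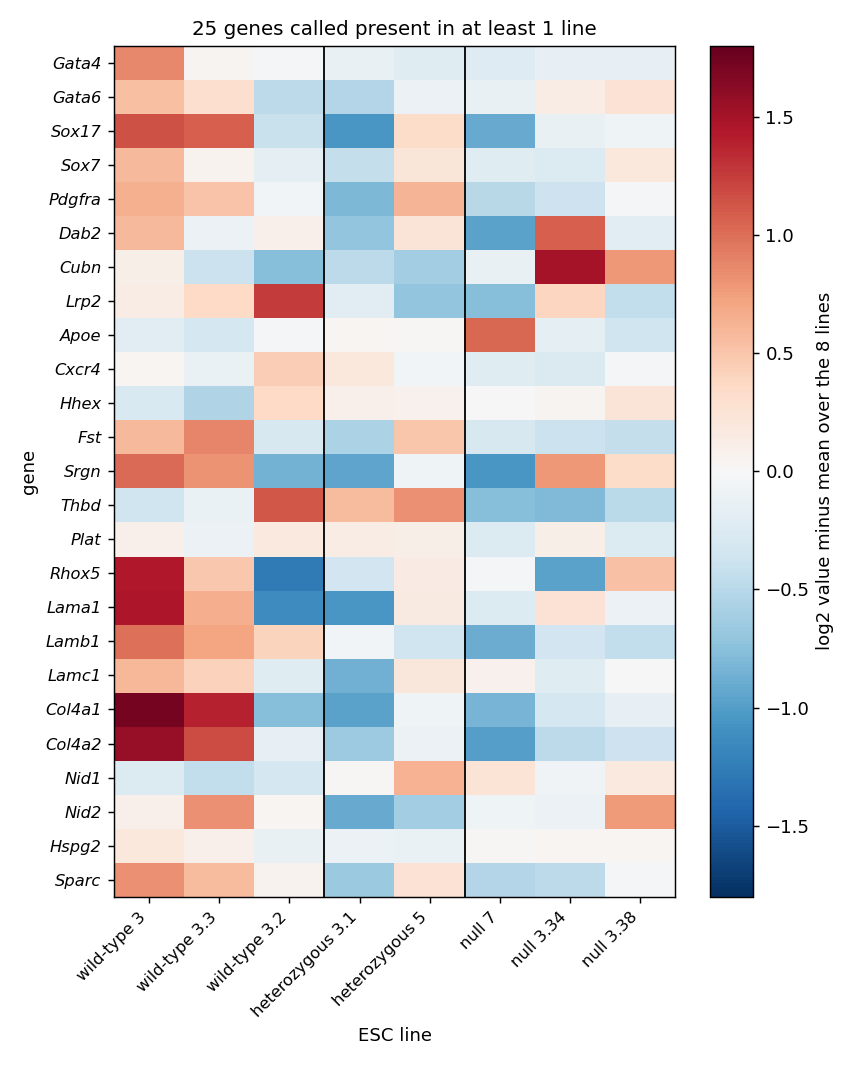
Log2 value minus the mean over the 8 lines (colour scale) for the 25 genes called present in at least 1 line (rows) in each ESC line (columns), with black lines between genotypes. Wild-type lines 3 and 3.3 are red for Sox17, Lama1, Lamb1, Col4a1, Col4a2 and Sparc, where wild-type line 3.2 is paler or blue.

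Genes that act with these were counted from 4 further lists, against the shares of all genes given above. Of 16 receptors of basement membranes 1 fell in null ESCs and 15 did not pass, with a median log2 fold change of −0.04. At an unadjusted p under 0.05, 5 of the 16 were lower (7.71% of all genes) and none was higher (8.67% of all genes). Itgav, the integrin alpha V subunit, had log2 values of 8.60, 8.65 and 8.48 (wild-type), 8.56 and 8.35 (heterozygous), and 7.54, 7.83 and 7.81 (null). All null lines lay below all other lines, and null minus wild-type was −0.85 log2 units (SE 0.12, limma adjusted p = 0.035). Dag1, dystroglycan, and the laminin receptor subunits Itga6 and Itga3 had −0.45, −0.42 and −0.85 and did not pass.

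Of 14 genes for collagen folding and export none passed in limma (3 higher and 3 lower at an unadjusted p under 0.05), and the median was 0.15. Serpinh1, the collagen chaperone Hsp47, had −0.92 (limma adjusted p = 0.0564). Crtap and P4hb, which serve prolyl hydroxylation of collagen, had 1.22 and 1.17 (adjusted p = 0.0729 and 0.0862 from limma). Mia3, which exports collagen from the endoplasmic reticulum, had −0.62.

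Of 22 other laminin and basement membrane genes none passed (5 lower at an unadjusted p under 0.05), with a median of −0.04. Pxdn, the peroxidase that crosslinks type IV collagen, had log2 values of 7.04, 6.94 and 7.15 (wild-type), 5.89 and 6.27 (heterozygous), and 5.80, 6.36 and 6.57 (null). All 5 mutant lines lay below all wild-type lines, with a log2 fold change of −0.80 in null ESCs (limma adjusted p = 0.0912). Agrn, agrin, had −0.91, and Ntn4 and Frem2, the latter not called present on the probe set used, had −0.45 and −0.42.

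Of 24 further endoderm genes none passed (5 higher and 1 lower at an unadjusted p under 0.05), with a median of −0.04. Amot, angiomotin, a regulator of Hippo signalling, had −1.23 (limma adjusted p = 0.0612). Spink1 and Npl had 1.07 and 1.78, with an adjusted p of 0.111 and 0.127 from limma, and Apom was called present in no line on the probe set used. Of 8 trophoblast markers 4 were called present in at least 1 line and none passed in limma, with 2 lower at an unadjusted p under 0.05.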

How the data were processed

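The authors made log2 values by joint RMA of 8 Affymetrix 430 2.0 arrays and deposited them, with RMA and limma named in the submitters' processing notes and versions not given in the sources used here. They also deposited a linear signal, a detection p-value and a call for each probe set, whose scaling is not given. Each log2 column matched the signal of its own array best. Of 45101 probe sets 64 controls were left out, 34945 had 1 gene, 932 several and 9160 none listed. Each of 18193 genes took its probe set with the highest mean. Genotypes were compared with limma 3.58.1 in R 4.3.3 (lmFit, eBayes, a mean for each genotype, Benjamini-Hochberg over all genes), after the fit was tested on simulated data. Where 1 genotype did not detect a gene, the fold uses its undetected values, which lay above the lowest detected value of their arrays. Summed levels are sums of 2 to the power of the log2 values.

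The members and lists were chosen with earlier results of these data known. Of the 37 genes, values in every line are given for those at an adjusted p under 0.05 or over 2-fold in any comparison. They are also given for those at an unadjusted p under 0.05 with no overlap between null and wild-type, and for Gata6, Gata4, Hnf4a, Sox17 and Cxcr4. Up to 4 genes of each further list are named by adjusted p, with values in every line only for Itgav and Pxdn. Lama1 was added after its values were seen. Litters came from the study's notes, and deviations from genotype means correlated by 0.10 and 0.04 within the 2 litter pairs and by −0.11 to 0.10 in pairs of other lines, so the litter pairs did not stand apart. Alternatives were the log2 signal (pseudocount 16), the mean of probe sets, detected genes, quantile normalization, a trend, covariates, the litter block, 2 genotypes and each line left out, and, chosen after seeing the data, 2 lines left out together. Sequences are RefSeq, GRCm38.p6, where 26 of 37 genes had a window. P-values rest on the spread within genotypes, which holds differences between lines, cultures and arrays together, and the number of arrays limits the precision.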

Additional observations from a re-analysis of the deposited data

How the results depend on the processing

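Between null and wild-type ESCs the count of the 37 genes past the threshold went from 1 to 0 with the 3′ minus 5′ difference or the feeder level as a covariate, on log2 signal, with the mean of probe sets and, in a setting chosen after seeing the data, with lines 3.2 (wild-type) and 3.1 (heterozygous) left out together. It was 2 with the litter as a replicate block, where Lamb1 was lost and Col4a1 and Col4a2 passed. With each wild-type or null line left out it was 0 to 1. Over all 18193 genes 206 passed in the main fit. There 0 passed with the 3′ minus 5′ covariate, 4 with the feeder covariate, 7 on log2 signal and 138 with the mean of probe sets. With the litter block 178 of all genes passed, and 2 to 208 with each wild-type or null line left out. The endoderm median of −0.14 was 0.12 with the 3′ minus 5′ covariate and −0.34 over detected genes, and −0.14 to −0.01 with each line left out (−0.01 without wild-type line 3). Between heterozygous and wild-type ESCs the endoderm median of −0.13 was −0.04 with the mean of probe sets and −0.43 over detected genes, and the basement membrane median ran from −1.14 to −0.17 with each line left out. Between null and heterozygous ESCs the count went from 0 to 1 with only these genotypes, where 96 of all 18193 genes passed. With each wild-type or null line left out it was 0 to 1, where 0 to 346 of all genes passed. There the endoderm median of 0.00 was 0.13 with the 3′ minus 5′ covariate and −0.10 to 0.03 with each line left out. The causes were not tested. For the 37 genes the litter block changed no other call and no called value reversed, and the genes of the further lists were not recomputed. With 2 or 3 lines a genotype, dim genes such as Cxcr4 and Gata4 lay near the detection limit, where differences are compressed. Leaving out 1 heterozygous line assumes that the line left varies like the other genotypes.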
